A study of Mus musculus with 10 samples.

Results

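Sting, encoded in mice by Tmem173, is the adaptor on which the cytosolic DNA-sensing pathway converges, and 8 further genes of the pathway and of the interferon response that follows it were examined with it: Tbk1, Irf3, Irf7, Irf1, Stat2, Ifit1, Ifit3 and Isg15. These 9 genes, of the 48709 in each table, were matched by their GRCm38 symbols. They were selected on the measured level of Tmem173, which was lower in the libraries named as 5-day TRULI, so that their values in that comparison are a description, and any count of calls among them there follows from the choice and supports nothing. TRULI inhibits the Lats kinases of the Hippo pathway, and 10 RNA-sequencing libraries record its effect in supporting cells of the murine utricle, a balance organ of the inner ear. The cells were sorted for the Lfng-GFP reporter, which marks supporting cells, from cultured utricles of mice at postnatal day 21.

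All cultures, controls included, carried the reporter and received 0.1% DMSO. The group DMSO_d5 held 3 libraries after 5 days with DMSO alone and the group TRULI_d5 held 3 libraries after 5 days with 10 μM TRULI. The groups DMSO_d10 and TRULI_d10 held 2 libraries each, collected after the same 5 days of treatment and 5 further days without it. Nothing states which animals or how many went into a library, so p-values measure only the spread between these samples. The sort rested on a reporter driven by Lfng, and Lfng itself varied from 21.6 to 544 CPM (counts scaled to the library total with TMM factors) among the libraries.

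The sample labels and the names of the deposited tables disagree for 4 of the 10 libraries. The libraries labelled TRULI_d5 1 and 2 are named DMSO_d10 1 and 2, and the libraries labelled DMSO_d10 1 and 2 are named TRULI_d5 2 and 3. The library labelled TRULI_d5 3 is named TRULI_d5 1, and the other 5 libraries carry the same name and label. The comparisons below are therefore given by label and by deposited name, and libraries are called by their labels unless the name is mentioned.

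The tables sum to between 2463872 and 6255149 counts. The mitochondrial transcript mt-Rnr2 took 13.0% to 26.4% of the counts in 6 libraries and 1.45% to 2.53% in the other 4, which are TRULI_d5 1 and 2 and both TRULI_d10 libraries. Both DMSO_d10 libraries were of the first kind, so that after recovery this share and the labelled treatment cannot be told apart. By deposited name the division is between all libraries at 5 days and all libraries at 10 days. The 14 supporting-cell markers summed to between 8549.5 and 17398 CPM and each exceeded 3 counts in every library. Of 14 macrophage and leukocyte markers, 7 had no count in any library, among them Adgre1, Cx3cr1, Itgam and the C1q genes, and the list summed to at most 18.6 CPM, most of it Cd68. The summed level of that list was 0.988 to 2.57 CPM in DMSO_d5 and 5.90 to 8.995 CPM in TRULI_d5 by label, or 7.95 to 10.5 CPM by name, and its part in the results below was not tested. The 10 hair-cell markers summed to 151 to 249.98 CPM in DMSO_d5, and in TRULI_d5 to 42.4 to 836 CPM by label and to 201 to 836 CPM by name, and their part was not tested either.

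The pathway is a relay. Double-stranded DNA in the cytosol activates the enzyme Cgas, whose cyclic dinucleotide product binds Sting in the endoplasmic reticulum. Sting then recruits the kinase Tbk1, which phosphorylates the transcription factor Irf3, and Irf3 drives transcription of interferon beta. Secreted interferon signals through its receptors and the Jak kinases to a complex that holds Stat2 and Irf9. That complex binds the interferon-stimulated response element (ISRE) in promoters of genes such as Ifit1, Ifit3 and Isg15, whereas the gamma-activated sequence (GAS) is the element of interferon-gamma targets such as Irf1.

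The promoters of the members show where these elements lie. The windows of 300 bases around RefSeq gene starts (GRCm38.p6) cover 8 of the 9 members; Tmem173 has none. The core of the ISRE, read as GAAA, any 2 bases and GAAA again, were found on either strand in the windows of 4 members, Stat2, Ifit1, Ifit3 and Isg15, and in 3.44% of all 32851 windows. The letters TTCNNNGAA of a GAS, which read the same on both strands, were found in that of Irf1 and in 8.30% of all windows. Tbk1, Irf3 and Irf7 held neither run of letters in their windows. The 250 bases before the start are given for the members with a match to show where the elements lie, with each match in capitals and every sequence written 5′ to 3′ along the strand of its gene.
Ifit1, chr19:34640639-34640888, plus strand: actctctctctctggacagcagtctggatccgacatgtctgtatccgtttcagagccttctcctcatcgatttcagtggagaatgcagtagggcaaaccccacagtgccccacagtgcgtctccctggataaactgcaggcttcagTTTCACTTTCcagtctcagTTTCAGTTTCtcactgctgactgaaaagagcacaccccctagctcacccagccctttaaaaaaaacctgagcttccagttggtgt
Ifit3, chr19:34583279-34583528, plus strand: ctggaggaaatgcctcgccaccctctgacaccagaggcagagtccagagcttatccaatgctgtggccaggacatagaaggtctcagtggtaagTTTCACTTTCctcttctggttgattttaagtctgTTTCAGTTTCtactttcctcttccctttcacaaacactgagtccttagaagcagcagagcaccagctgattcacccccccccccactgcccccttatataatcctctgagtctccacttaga
Isg15, chr4:156200819-156201068, minus strand: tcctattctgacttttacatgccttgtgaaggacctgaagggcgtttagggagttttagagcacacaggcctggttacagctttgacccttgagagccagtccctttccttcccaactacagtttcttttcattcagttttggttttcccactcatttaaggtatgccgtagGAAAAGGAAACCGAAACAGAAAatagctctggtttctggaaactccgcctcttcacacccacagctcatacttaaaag
Stat2, chr10:128270248-128270497, plus strand: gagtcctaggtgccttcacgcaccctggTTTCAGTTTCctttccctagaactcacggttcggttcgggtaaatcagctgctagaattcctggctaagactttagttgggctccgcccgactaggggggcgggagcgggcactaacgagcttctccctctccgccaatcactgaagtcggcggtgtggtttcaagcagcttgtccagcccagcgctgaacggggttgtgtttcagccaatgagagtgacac
Irf1, chr11:53769764-53770013, plus strand: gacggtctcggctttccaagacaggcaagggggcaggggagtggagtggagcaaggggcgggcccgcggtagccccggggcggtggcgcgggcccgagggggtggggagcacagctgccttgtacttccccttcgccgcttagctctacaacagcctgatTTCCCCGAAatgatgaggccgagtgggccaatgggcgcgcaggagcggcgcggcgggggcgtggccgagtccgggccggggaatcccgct
The promoters of Ifit1 and Ifit3 each held 2 matches, whose first bases lay at -104 and -85 from the start in Ifit1 and at -156 and -122 in Ifit3. Isg15 held 3 overlapping matches, beginning at -78, -72 and -66, that join into a single run. Stat2 held a single match at -222, and the GAS of Irf1 began at -90. These are matches of letters and not measured sites of binding.

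Among the 9 members, levels per length were highest for Irf3 and Tmem173 and lowest for Ifit1, Ifit3 and Isg15. Averaged over the 10 libraries, Irf3 stood at 42.4 fragments per kilobase (FPKM, scaled to the protein-coding total of each library; SD 24.0) and Tmem173 at 38.6 FPKM (SD 30.9). The kinase Tbk1 followed at 13.2 FPKM (SD 7.78), and then Stat2 at 5.58 FPKM (SD 2.37) and Irf1 at 4.14 FPKM (SD 1.18). Irf7, which amplifies the interferon response, averaged 0.851 FPKM (SD 0.719), Ifit1 0.415 FPKM (SD 0.541), Ifit3 0.317 FPKM (SD 0.490) and Isg15 0.174 FPKM (SD 0.431). The ranges of Irf3 and Tmem173 overlapped, from 20.4 to 87.0 FPKM and from 5.68 to 94.2 FPKM, and every further pair of neighbours in this order overlapped as well. The FPKM of Irf3 depends on its effective length, which ranged from 325 to 1164 bases among the tables, a 3.59-fold range, whereas that of Tmem173 differed by 1.01-fold at most.

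**Figure D1:**
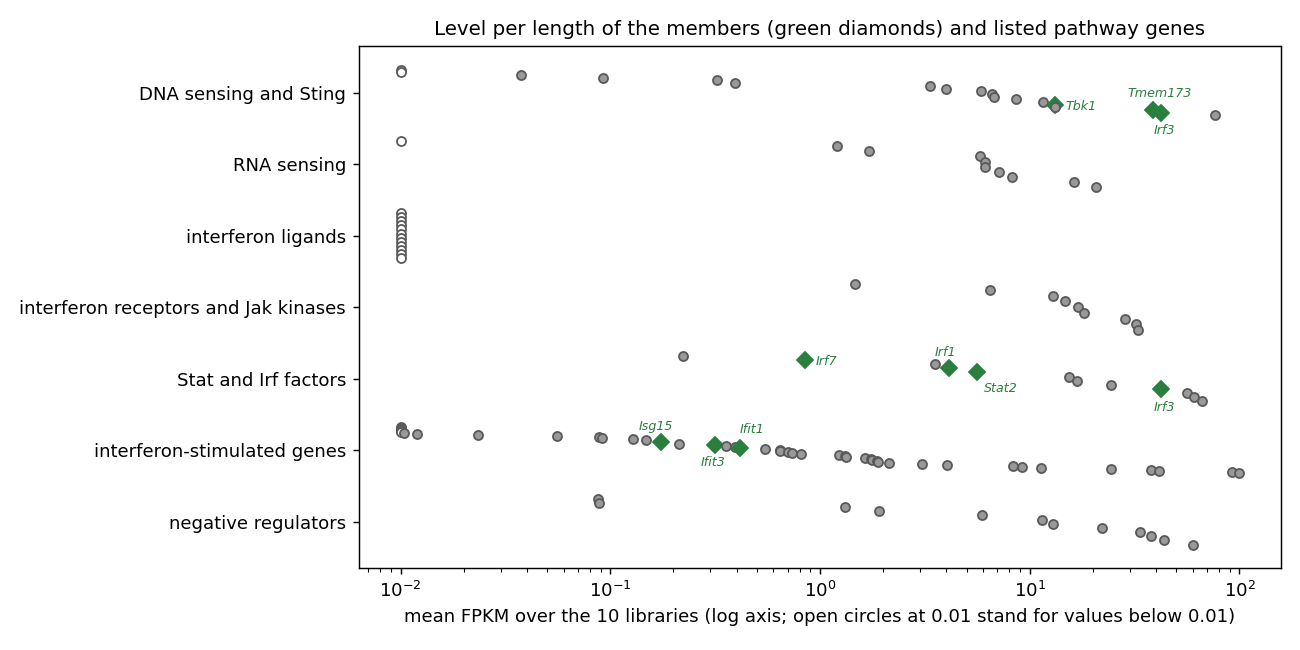
Mean FPKM over the 10 libraries (log axis) for the genes of 7 interferon-pathway lists, 1 row of points per list. Green diamonds mark the members and open circles stand for genes below the lowest tick. All 12 interferon ligands lie there, Tmem173 at 38.6 and Irf3 at 42.4 FPKM lie among the upper genes of their list, and Isg15, Ifit3 and Ifit1 lie between 0.174 and 0.415 FPKM.

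The other genes of the relay ranged from undetected to abundant. Cgas, the DNA sensor upstream of Sting, had at most 1 count in any library. Surf4, which returns Sting to the endoplasmic reticulum, was the highest of the 18 DNA-sensing genes at 76.6 FPKM. All 12 interferon ligands, among them Ifnb1 and Ifng, had no count in any library, which allows at most 0.479 to 1.16 CPM for each of them, the level of 3 counts in each library. The 9 receptor and Jak genes all exceeded 3 counts in every library, led by Jak1 at 32.8 FPKM and followed by Ifngr1. Irf9 averaged 61.0 FPKM. Socs3, a feedback inhibitor of Jak signaling, led the negative regulators at 60.4 FPKM, and Pias1 followed at 43.5 FPKM. Of 46 interferon-stimulated genes, 14 never exceeded 3 counts and 11 exceeded them in every library. The highest of the latter were Ifitm3, which blocks viral entry, at 99.0 FPKM and Ifi27 at 91.7 FPKM.

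Tmem173 varied more among libraries than any other member above 3 counts throughout. By library it measured 77.3, 139 and 151 CPM in DMSO_d5, 58.7, 75.1 and 17.7 CPM in TRULI_d5, 10.7 and 9.54 CPM in DMSO_d10, and 44.4 and 102 CPM in TRULI_d10. The 3 lowest values, 17.7, 10.7 and 9.54 CPM, belong to the 3 libraries whose deposited names read TRULI_d5. The rule that chose these genes used this difference.

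By label the means were 122 ± 39.5 CPM in DMSO_d5 (SD, n = 3), 50.5 ± 29.6 CPM in TRULI_d5 (SD, n = 3), 10.1 ± 0.846 CPM in DMSO_d10 (SD, n = 2) and 73.1 ± 40.5 CPM in TRULI_d10 (SD, n = 2). By deposited name DMSO_d5 and TRULI_d10 kept those values, TRULI_d5 averaged 12.7 ± 4.42 CPM (SD, n = 3) and DMSO_d10 66.9 ± 11.6 CPM (SD, n = 2). In order of level by name, DMSO_d5 and TRULI_d10 overlapped, as did TRULI_d10 and DMSO_d10, and TRULI_d5 lay below every library of the others. In order of level by label, DMSO_d5 overlapped TRULI_d10, and TRULI_d10 overlapped TRULI_d5, while DMSO_d10 lay below every other library. These are libraries of many cells, in which fewer cells carrying a transcript and less transcript per cell cannot be told apart.

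**Figure D2:**
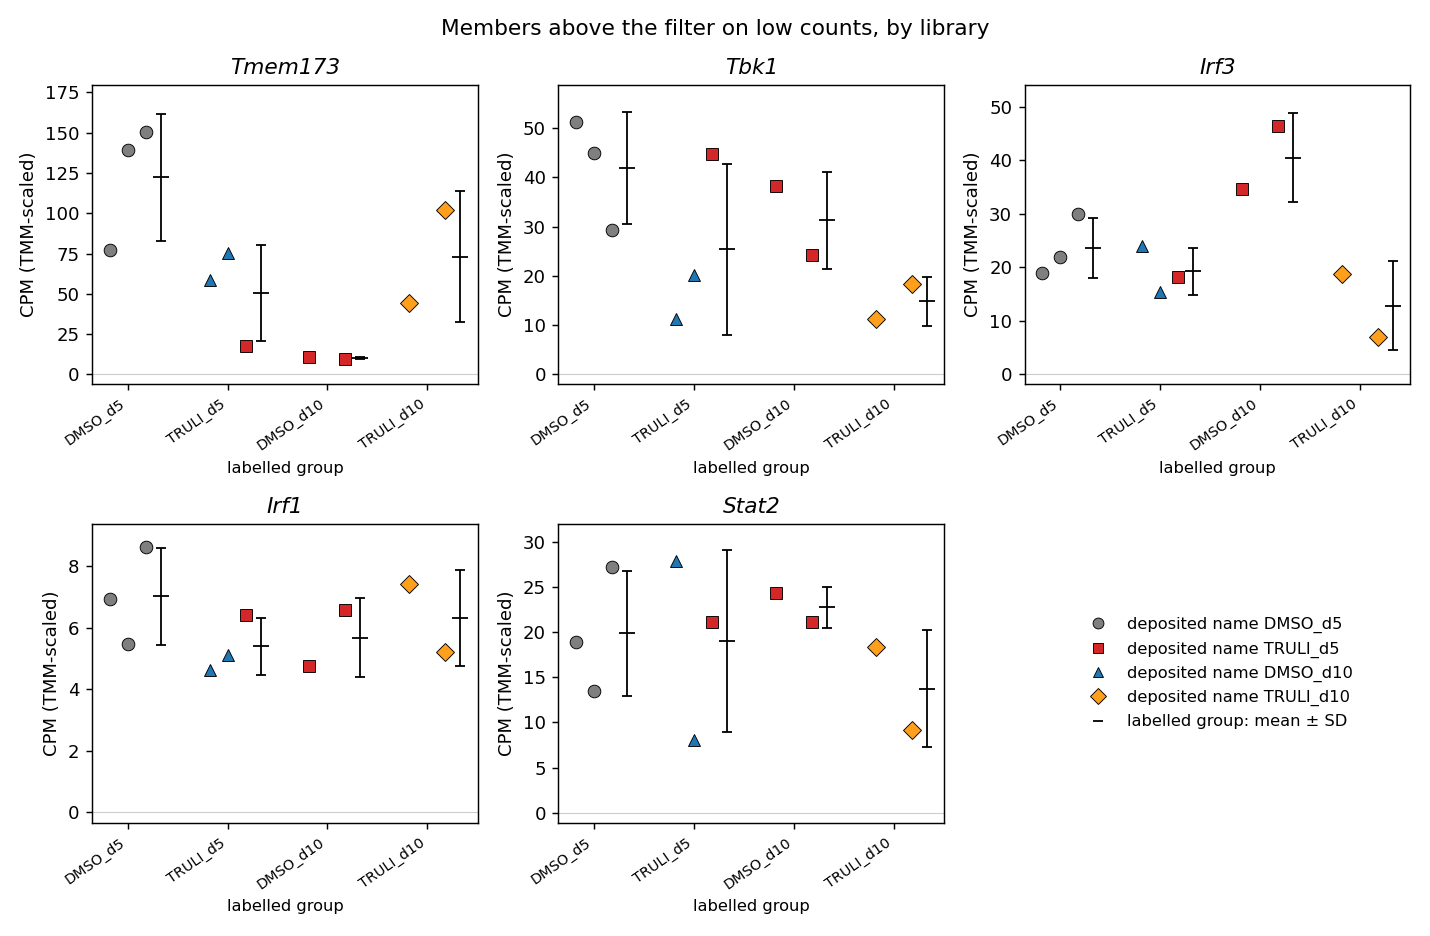
CPM (y axis, scaled with TMM factors) of the 5 members above the filter on low counts in each of the 10 libraries. Positions give the labelled group, colours and shapes give the deposited name, and black bars show the mean ± SD of each labelled group (n = 3 at 5 days, n = 2 at 10 days). The 3 red squares of Tmem173 lie between 9.54 and 17.7 CPM, below all other libraries, whereas the red squares of the other 4 genes overlap the grey circles of DMSO_d5.

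The kinase and the transcription factor downstream of Sting had other orders of libraries. Tbk1 measured 51.4, 45.0 and 29.4 CPM in DMSO_d5, 11.2, 20.2 and 44.7 CPM in TRULI_d5, 38.2 and 24.3 CPM in DMSO_d10, and 11.2 and 18.4 CPM in TRULI_d10. Its 4 lowest libraries, from 11.2 to 20.2 CPM, were the 4 with a low share of mt-Rnr2, and the 6 others lay between 24.3 and 51.4 CPM. How many genes divide the libraries in this way was not counted. Between the labelled DMSO_d10 and TRULI_d10, which differ in that share throughout, 28.6% of all tested genes were lower throughout in TRULI_d10. Irf3 measured 18.9, 21.9 and 29.9 CPM in DMSO_d5, 23.9, 15.4 and 18.2 CPM in TRULI_d5, 34.6 and 46.4 CPM in DMSO_d10, and 18.7 and 6.88 CPM in TRULI_d10. Its 2 highest libraries were those labelled DMSO_d10, which are named TRULI_d5, and the third library of that name was among the lower ones at 18.2 CPM.

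Stat2, the interferon-specific Stat protein, and Irf1, an early interferon-gamma target, were steadier. Stat2 ranged from 8.06 CPM in TRULI_d5 2 to 27.9 CPM in TRULI_d5 1, so that the extremes shared a labelled group. By label it averaged 19.9 ± 6.88 CPM in DMSO_d5 (SD, n = 3) and 19.0 ± 10.1 CPM in TRULI_d5 (SD, n = 3). Irf1 ranged from 4.63 to 8.65 CPM over the 10 libraries, with 14 to 41 counts behind each value. By label it averaged 7.02 ± 1.59 CPM in DMSO_d5 (SD, n = 3) and 5.39 ± 0.928 CPM in TRULI_d5 (SD, n = 3), and the libraries overlapped.

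The remaining 4 members were near the limit of detection and were removed by the filter on low counts in both comparisons. Irf7 had 0 to 6 counts and exceeded 3 counts in 4 libraries, which bore 3 different labels. Ifit1 had 11 counts in TRULI_d5 3, 8 in DMSO_d10 2, 4 in DMSO_d5 1 and at most 3 in the other 7 libraries. Ifit3 had 14 counts in TRULI_d5 1, 6 in TRULI_d10 1 and at most 1.19 in the other 8 libraries. Isg15, the ubiquitin-like protein among the most inducible interferon targets, had 2 counts in TRULI_d5 3, 1 in TRULI_d10 2 and none in the other 8 libraries. By label at 5 days the 3 TRULI_d5 libraries of Ifit3, with 14, 1 and 1.19 counts, all lay above those of DMSO_d5, which had none. The same held for 8.54% of all tested genes, and by name the libraries of Ifit3 overlapped. By name at 5 days the summed counts of Ifit1 were 22 with TRULI and 5 with DMSO, a ratio of 3.44 after scaling with an exact 95% interval from 1.27 to 11.6, which covers counting error and not the spread between libraries, and the libraries overlapped. These 4 genes include 3 of the 4 members whose promoters, printed above, hold an ISRE match.

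**Figure D3:**
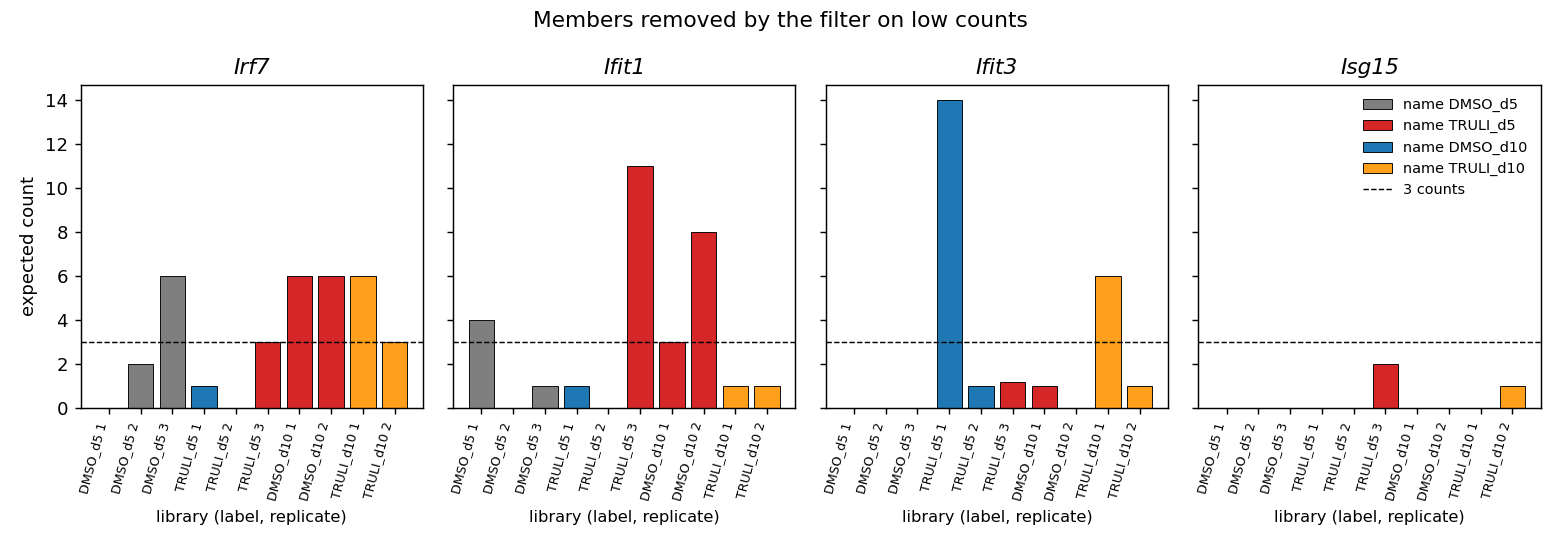
Expected counts (y axis) of the 4 members removed by the filter on low counts in each library (x axis, by label and replicate), with bar colours for the deposited names. The dashed line marks 3 counts. No library exceeds 14 counts for any of the 4 genes, and Isg15 stays at or below 2.

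The comparison of TRULI with DMSO at 5 days asks how Lats inhibition alters expression while the compound is present. By label, edgeR's quasi-likelihood test called 1 of 11071 genes (0.00903%; a call required both a more than 2-fold difference and an adjusted p below 0.05) and none of the 5 members above the filter, while DESeq2 called 2.36% of the genes and again no member. Of the 5, 1 member, Tmem173, had an unadjusted p under 0.05, as did 13.7% of all genes tested. Nothing is read from these counts, since 1 of the 3 TRULI_d5 libraries is among those that chose the genes. The log2 fold change of Tmem173 was -1.31 (SE 0.51), that of Tbk1 -0.73 (SE 0.54), that of Irf1 -0.39 (SE 0.57), that of Irf3 -0.31 (SE 0.39) and that of Stat2 -0.07 (SE 0.53). Without TRULI_d5 3 Tbk1 was at -1.50 on the log2 scale. The labelled TRULI_d5 libraries of Tmem173 all lay below those of DMSO_d5, as held for 9.57% of all tested genes. The summed level of the supporting-cell markers did not overlap either, at 13035 to 17398 CPM in DMSO_d5 and 8549.5 to 12482 CPM in TRULI_d5. That sum includes Otog, at 4806 to 9964 CPM in DMSO_d5 and 2145 to 4513 CPM in TRULI_d5. Sox2, at 52.1 to 86.5 and 36.3 to 81.2 CPM, overlapped, as did Sox9. The share of mt-Rnr2 was low in 2 of the 3 TRULI_d5 libraries. The part of the markers and of this share was not tested.

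By deposited name, edgeR called 354 of 11529 genes (3.07%), of which 1.02% of the genes tested were lower, and 1 of the 5 members, Tmem173, among the lower. This count restates how the genes were chosen and is no evidence of the difference. With the replicate number as a block edgeR called 6.05% of the genes. The log2 fold change of Tmem173 was -3.25 (SE 0.34), a 9.53-fold lower level. The other 4 had smaller differences, with Irf3 at 0.50 (SE 0.35), Stat2 at 0.17 (SE 0.31), Tbk1 at -0.21 (SE 0.31) and Irf1 at -0.23 (SE 0.43) on the log2 scale. All 6 libraries of this comparison had mt-Rnr2 above 10% of counts. Restricting the labelled groups to libraries above that share left 1 TRULI and 3 DMSO libraries, a choice made after seeing the data, in which the log2 fold change of Tmem173 was -2.78. That single library is one of the 3 that chose the genes, so this value too is a description.

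**Figure D4:**
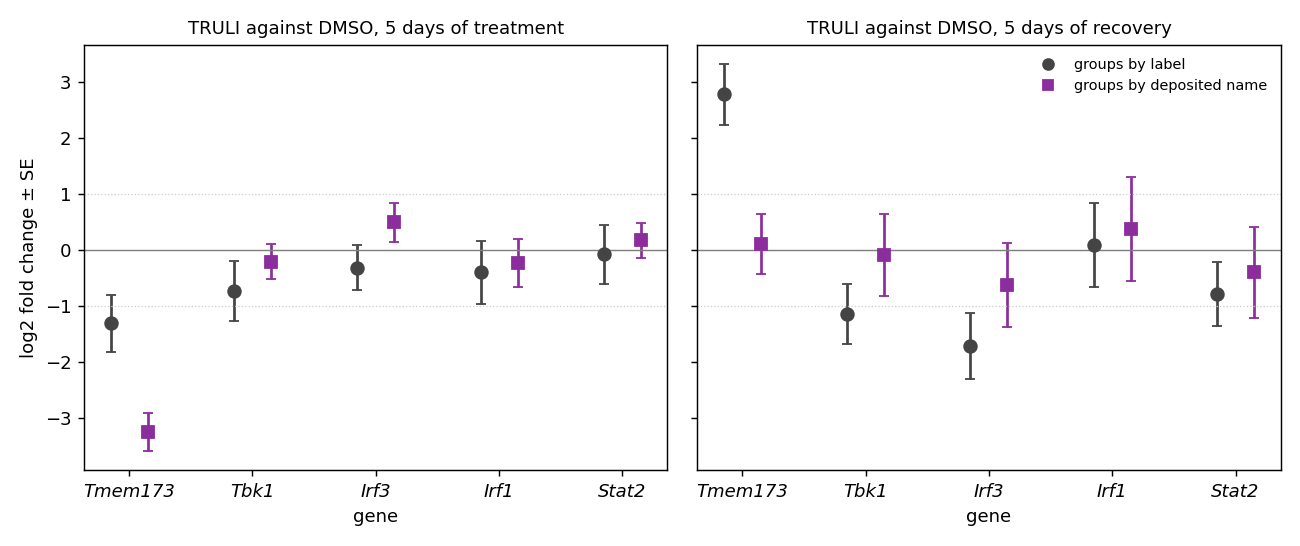
Log2 fold change of TRULI against DMSO with its SE (y axis) for the 5 members above the filter, at 5 days (left) and after recovery (right), with groups by label (circles) and by deposited name (squares). Dotted lines mark a log2 fold change of 1 in size. Tmem173 lies at -1.31 and -3.25 on the left and at 2.79 and 0.11 on the right, and Irf3 at -0.31 and 0.50 on the left and at -1.72 and -0.62 on the right.

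The comparison after 5 days of recovery asks what persists once the compound is withdrawn, and here the values of Tmem173 differed between the labels and the names. By label, the 2 TRULI_d10 libraries were set against the 2 libraries of lowest Tmem173, those labelled DMSO_d10. Of 12242 genes edgeR called 2.07%, with 1% of genes higher, and 1 of the 5 members, Tmem173, which was higher by 2.79 on the log2 scale (SE 0.54). Irf3 was at -1.72 (SE 0.59), Tbk1 at -1.14 (SE 0.54), Stat2 at -0.79 (SE 0.57) and Irf1 at 0.10 (SE 0.75) on that scale. Among the 5, the libraries of 1 member were all higher and those of 3 all lower in TRULI_d10, beside 29.1% of all tested genes that were higher throughout and 28.6% that were lower throughout, 57.7% together. Supporting-cell markers summed to 14392 to 17343 CPM in DMSO_d10 and to 9639.8 to 10763 CPM in TRULI_d10 by label, and their part in this comparison was not tested. As the labelled control libraries are those the rule read as treated, these values and the count are a description and support nothing.

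By deposited name the recovery comparison rests on 4 libraries that the rule did not use, all with a low share of mt-Rnr2. Tmem173 measured 58.7 and 75.1 CPM in the libraries named DMSO_d10 and 44.4 and 102 CPM in TRULI_d10. The log2 fold change was 0.11 (SE 0.54; adjusted p = 1.0 by edgeR's quasi-likelihood test), and the interval of 2 SE around it ran from -0.97 to 1.19. Tbk1 was at -0.09 (SE 0.73), Stat2 at -0.40 (SE 0.81), Irf1 at 0.37 (SE 0.93) and Irf3 at -0.62 (SE 0.76), all with an adjusted p of 1.0 in the same test. None of the 5 members and 0% of 11568 genes were called by edgeR, 0 members and 4.6% of genes had an unadjusted p under 0.05, and DESeq2 called 0 members and 0.424% of genes. A 2-fold higher level of Tmem173 lay within that interval, which reached past 1 on the log2 scale, and was not resolved by these 4 libraries. On leaving out each library the log2 fold change ran from -0.60 to 0.59.

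Beyond the members, 108 genes of the pathway lists were followed in the same fits. By label edgeR called none of the 53 tested at 5 days, and 7 had an unadjusted p under 0.05 (13.2%, against 13.7% of all genes). DESeq2 called 1 of the 53, Irgm1, beside 2.36% of all genes. The median log2 fold change of the 53 was -0.13, against 0.05 over all tested genes. By deposited name 54 were tested and 2 were called at 5 days, Ifit2 higher and Irgm1 lower, or 3.7% against 3.07% of all genes, with a median of -0.20 against 0.03. An unadjusted p under 0.05 was found for 18 of them (33.3%, against 16.4% of all genes). These counts by name include Ifit2, which passed the filter only through the libraries named TRULI_d5, and are a description. After recovery edgeR called none of 56 by label, of which 9 had an unadjusted p under 0.05 (16.1%, against 24.5% of all genes). DESeq2 called 5 of the 56 higher (Ifi27, Irf2bp1, Irf8, Irf9 and Oasl2). Of all genes it called 6.94% higher and 12% in either direction. By name edgeR called none of 57, of which 1 had an unadjusted p under 0.05 (1.75%, against 4.6% of all genes). DESeq2 called 1 of the 57, Oasl2, beside 0.424% of all genes. The libraries labelled DMSO_d10 and TRULI_d10 differ in the mt-Rnr2 share throughout.

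Ifit2 passed the filter at 5 days by name but not by label. It passed only through the 3 libraries named TRULI_d5, so its ratio, p-value and call below are a description and support nothing. It lies beside Ifit1 and Ifit3 on chromosome 19 and encodes a protein of the same RNA-binding family. It measured 1.16, 0 and 0.247 CPM in DMSO_d5, 2.07, 1.47 and 10.0 CPM in TRULI_d5, 11.2 and 16.6 CPM in DMSO_d10, and 7.08 and 0.209 CPM in TRULI_d10. The 3 libraries named TRULI_d5 were the highest, with 39, 47 and 73 counts against 3, 0 and 1 in DMSO_d5. The summed counts of the 2 groups, 159 and 4, gave a ratio of 31.0 after scaling, with an exact 95% interval from 11.9 to 115 that covers counting error only, and edgeR gave an adjusted p of 0.0085. Without DMSO_d5 2 the adjusted p in edgeR was 0.0515 and the call was lost. Library TRULI_d10 1, which bears that name too, had 39 counts as well. Neither RefSeq window of Ifit2 held the letters of an ISRE, and the first held those of a GAS, beginning at -241.

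Irgm1, an interferon-inducible GTPase, was called in the other direction. It measured 98.1, 145 and 130 CPM in DMSO_d5, 21.1, 11.4 and 53.7 CPM in TRULI_d5, 59.7 and 61.1 CPM in DMSO_d10, and 37.4 and 14.6 CPM in TRULI_d10. DMSO_d5 holds the same 3 libraries by label and by name, and every other library lay below them. At 5 days all TRULI libraries lay below those of DMSO for 9.57% of all tested genes by label and 10.8% by name. By name its log2 fold change at 5 days was -1.08 (SE 0.22; adjusted p = 0.0247 in edgeR), and by label it was -2.11 (SE 0.55; adjusted p = 0.323). The call by name was lost without the library named TRULI_d5 1 (adjusted p = 0.0759 in edgeR), TRULI_d5 2 (0.0871), DMSO_d5 2 (0.128) or DMSO_d5 3 (0.0766), over a range of log2 fold changes from -1.23 to -0.96. With the replicate number as a block Irgm1 had -1.07 by name (SE 0.18; adjusted p = 0.0031 in edgeR), where 6.05% of all genes were called. With all 10 libraries in one fit it was not called (adjusted p = 0.208 in edgeR). Its promoter is shown for comparison with those of the members, since it carries 2 overlapping ISRE matches that begin at -30 and -24.
Irgm1, chr11:48871421-48871670, minus strand: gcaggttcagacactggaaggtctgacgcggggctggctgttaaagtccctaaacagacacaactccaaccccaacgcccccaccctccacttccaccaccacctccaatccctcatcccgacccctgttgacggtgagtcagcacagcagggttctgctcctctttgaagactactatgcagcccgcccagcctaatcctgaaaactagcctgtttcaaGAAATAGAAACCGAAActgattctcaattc

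**Figure D5:**
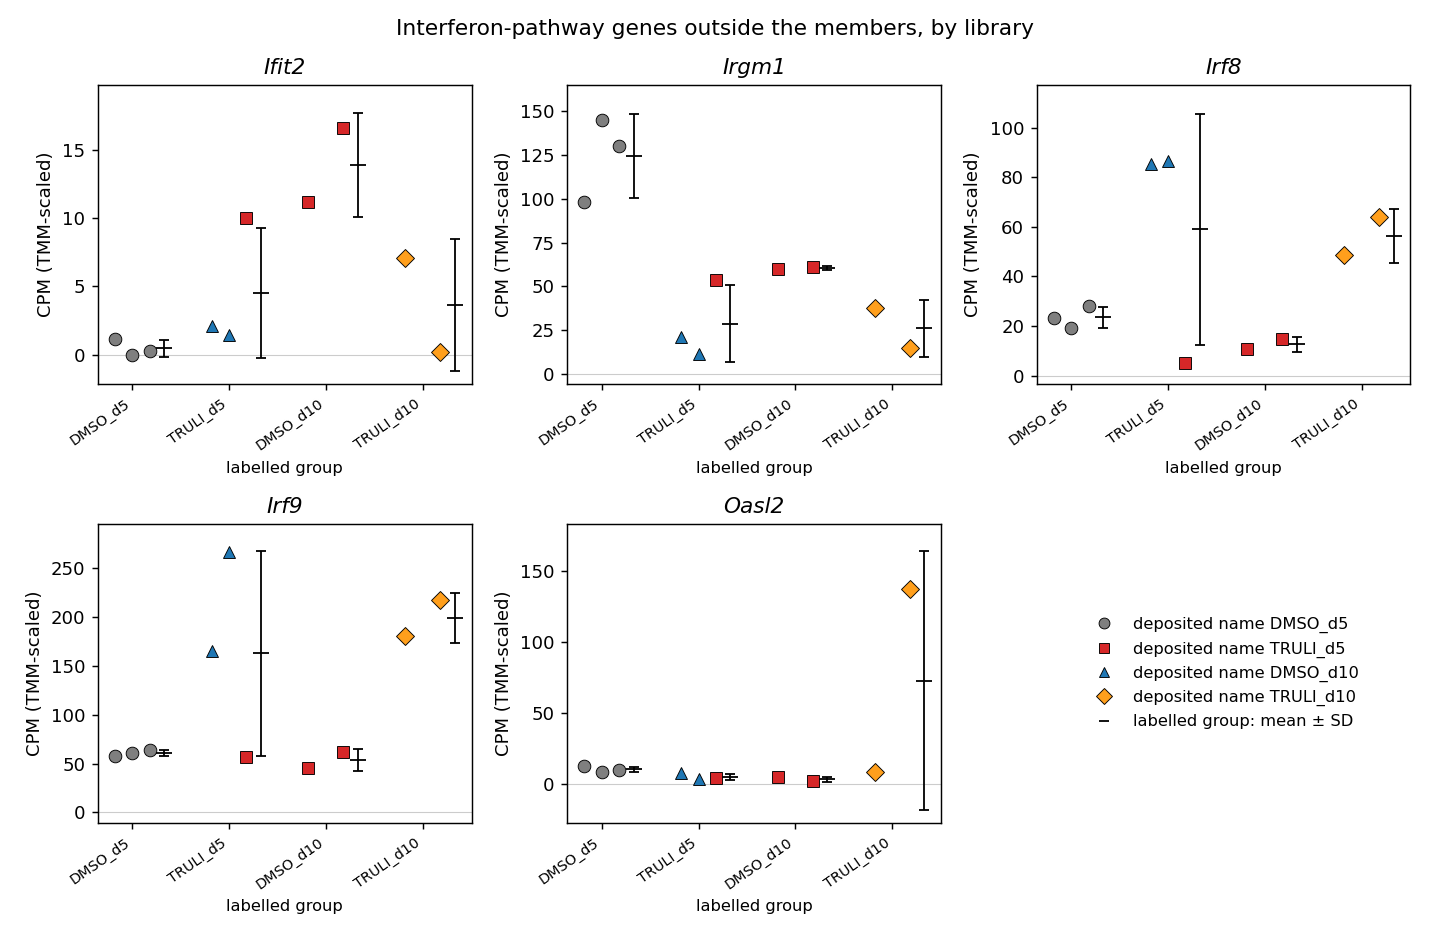
CPM (y axis, scaled with TMM factors) of 5 interferon-pathway genes outside the members in each library, drawn as for the members: positions give labels, colours and shapes give deposited names, and black bars show the mean ± SD of each labelled group. Ifit2 is highest in the red squares (10.0 to 16.6 CPM), Irgm1 highest in the grey circles (98.1 to 145 CPM), and Irf8 and Irf9 highest in the blue triangles and orange diamonds. Oasl2 stands out in a single library at 137 CPM.

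The lists are described by their counts and medians. Those by name at 5 days include Ifit2, which passed the filter only through the libraries named TRULI_d5. Its call and its p-value are part of the counts of interferon-stimulated genes by name, which are a description. By name at 5 days, 14 of the 46 interferon-stimulated genes were tested, 1 was called higher and 1 lower, 9 had an unadjusted p under 0.05 (64.3%, against 16.4% of all genes), and their median log2 fold change was -0.81 against 0.03 over all tested genes. By label 13 were tested, edgeR called none, DESeq2 called Irgm1, 2 had an unadjusted p under 0.05 (15.4%, against 13.7% of all genes), and the median was -0.25 against 0.05. Ifitm3, which measured 22.4 to 49.8 CPM in DMSO_d5 and 17.5 to 28.6 CPM in the libraries named TRULI_d5, had -0.79 (SE 0.34) by name and -0.25 (SE 0.46) by label and was not called. None of the 9 tested receptor and Jak genes was called by edgeR or DESeq2 at 5 days in either grouping. An unadjusted p under 0.05 was found for 3 by name, among them Jak1 at -0.66 (SE 0.23), and for 1 by label, where Jak1 had -0.23 (SE 0.29). Tlr3, the endosomal receptor for double-stranded RNA and the highest RNA-sensing gene at 20.7 FPKM, had -0.96 (SE 0.25; adjusted p = 0.063 in edgeR) by name and -0.69 (SE 0.46; adjusted p = 0.496) by label.

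Irf9 and Irf8 divided the libraries differently from Tmem173. Irf9, which completes the ISRE-binding complex, measured 45.6 to 64.0 CPM in the 6 libraries with a high share of mt-Rnr2 and 165 to 267 CPM in the other 4. Irf8, best known from myeloid cells, measured 5.14 to 27.9 CPM in the former and 48.6 to 86.5 CPM in the latter. How many genes divide all 10 libraries in this way was not counted. By label after recovery, where TRULI_d10 and DMSO_d10 differ in that share throughout, 29.1% of all tested genes were higher throughout in TRULI_d10. By label after recovery, Irf9 had a log2 fold change of 1.83 (SE 0.37; adjusted p = 0.0519 in edgeR) and Irf8 of 2.11 (SE 0.46; adjusted p = 0.0601 in edgeR), a comparison in which the mt-Rnr2 share and the treatment cannot be told apart. By name the same comparison gave -0.13 (SE 0.41) and -0.62 (SE 0.47). At 5 days by name, Irf8 had -1.20 (SE 0.39; adjusted p = 0.141 in edgeR) and -1.26 (SE 0.34; adjusted p = 0.0368 in edgeR) once the replicate number was included as a block. By label at 5 days it had 1.29 (SE 0.78; adjusted p = 0.465 in edgeR), the other direction, and Irf9 had 1.39 (SE 0.50; adjusted p = 0.334 in edgeR), while by name Irf9 had -0.14 (SE 0.21). Without TRULI_d5 3 edgeR called both higher by label, a description only, since the share of all genes called in that fit is not given. Both TRULI libraries of that fit had a low share of mt-Rnr2 and all DMSO libraries a high one, so share and treatment cannot be told apart there.

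A few antiviral genes were high in a single library. Oasl2, a member of the oligoadenylate synthetase family, measured 137 CPM in TRULI_d10 2 and 1.82 to 12.4 CPM in the other 9 libraries. Mx2, of a family of interferon-induced dynamin-like GTPases but classed in GENCODE as a polymorphic pseudogene, measured 53.5 CPM in TRULI_d5 2 and at most 1.48 CPM elsewhere. Parp12 measured 87.2 CPM in the same library and 4.64 to 22.8 CPM in the others. These 3 genes were chosen after their values were seen.

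Across the 10 libraries the genes whose log2(CPM + 1) followed that of Tmem173 most closely, among 8261 protein-coding genes with a mean of at least 10 CPM, were Ccpg1 (Pearson r = 0.96), Rgs2 (0.95), Sccpdh (0.95), Slc2a13 (0.94) and Fxyd3 (0.93). Rgs2, a regulator of G-protein signaling, measured 476 to 542 CPM in DMSO_d5, 84.0 to 137 CPM in the 3 libraries named TRULI_d5, and 357 to 425 CPM in the other 4. Slc2a13 measured 15.8 to 27.0 CPM in DMSO_d5 and 3.82 to 4.11 CPM in the libraries named TRULI_d5. The low values of both genes in those libraries follow from the choice, since Tmem173 was itself selected for its low level there. Of the other members above the filter, Tbk1 stood at -0.08, Irf1 at 0.14, Stat2 at -0.37 and Irf3 at -0.51. The 10 libraries share groups and a division in mt-Rnr2, so these values describe likeness in these libraries only.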

How the data were processed

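RNA from sorted supporting cells was sequenced in 10 libraries. The labels name polyA selection and TruSeq, whereas the study's methods name a QIAseq kit. The authors aligned reads to GRCm38 (mm10) with STAR and deposited expected counts per gene, with effective lengths. The counting tool is not given in the sources used here. Expected counts were rounded, filtered with filterByExpr, scaled by TMM and tested with edgeR 4.0.16 (glmQLFTest, R 4.3.3), within the libraries of each comparison and with Benjamini-Hochberg adjustment over all genes tested. FPKM were computed from deposited effective lengths. Genes were called at an adjusted p below 0.05 with a fold change above 2. Groups came from the labels, with deposited names as an alternative, and DESeq2 1.42.0 as another. The fits were tested on simulated data.

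The 9 genes and all lists were chosen with earlier results of these data known. Genes outside the 9 were named if called by edgeR, if among the 2 of highest FPKM in a list, or if among the 5 most like Tmem173. One gene that this rule names is not reported here. Gene classes came from GENCODE M21, which matched 48349 of 48709 genes. Depth was 2463872 to 6255149 counts per library, and the floors and the exact intervals of summed counts cover counting error only. The interval of 2 SE for Tmem173 comes from the edgeR fit and includes the spread between libraries. Same-numbered libraries at 5 days by name deviated together (r = 0.381, 0.192 and 0.315), so the numbers were taken to pair them. This pairing entered only the fits with the replicate number as a block. All other p-values, calls and shares by name come from fits that leave it out.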

Additional observations from a re-analysis of the deposited data

Results flagged for a closer look

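Under the labels, the difference in Tmem173 between TRULI and DMSO had opposite directions at the 2 times. The mean log2 ratio was -1.50 at 5 days and 2.67 after recovery, with every TRULI library on the same side of the DMSO libraries each time. The difference between the times was not tested, both depend on the 4 libraries whose labels and names disagree, and the genes were chosen on these values.

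Under the deposited names, Irf1 had a mean log2 ratio of -0.24 at 5 days and 0.32 after recovery, again in opposite directions. This difference was not tested, rests on 14 to 41 counts per library, and is smaller in size than the SE of either fit, 0.43 and 0.93.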

How the results depend on the processing

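At 5 days no member was called by label, and 1, Tbk1, was called lower without TRULI_d5 3 (leaving out each library gave 0 to 1). In that fit the mt-Rnr2 share and the treatment cannot be told apart. By deposited name the count was 1 in all 14 fits, the replicate block included, which is always Tmem173 in the libraries that chose the genes, so the agreement carries no support. For pathway genes at 5 days the count of 0 by label became 1 with DESeq2, 4 without the filter and 0 to 9 on leaving out each library. By name it was 2, Ifit2 among them, also with DESeq2, with DESeq2 size factors, with protein-coding genes only and without mitochondrially encoded genes. It was 3 with the replicate block, 4 without the filter, 0 with all 10 libraries in one fit and 0 to 2 on leaving out each library. After recovery 1 member was called by label, again on libraries that chose the genes, 0 to 2 on leaving out each library, 2 without the filter, 0 with all 10 libraries in one fit, 0 without mitochondrially encoded genes and 0 in all 12 fits by name. The pathway count of 0 by label became 5 with DESeq2, 3 with the replicate block, 5 without the filter, 1 with protein-coding genes only and 0 to 11 on leaving out each library. By name it was 1 with DESeq2 and 2 without the filter. Where the share of all genes in the same fit is not given, these counts are a description only. The cause of these changes was not tested.

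Tmem173 ranged from -2.78 to -0.94 by label and from -3.58 to -3.08 by name at 5 days, and from 2.04 to 3.25 by label after recovery. By name after recovery it ranged from -0.60 to 0.59, reversing to -0.058 without DMSO_d10 1 and to -0.60 without TRULI_d10 2. With the replicate block, all calls by name at 5 days went from 354 to 698 and by label after recovery from 253 to 1269. The labelled libraries and those after recovery share only a number (r = -0.159, 0.0668 and -0.196 at 5 days by label). DESeq2 called 261 rather than 1 gene at 5 days and 1467 rather than 253 after recovery by label, and 583 rather than 354 and 49 rather than 0 by name. Several alternatives by name were chosen after seeing the data. Irf7, Ifit1, Ifit3 and Isg15 stayed below the filter on low counts in each comparison.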
